A study of Mus musculus with 4 samples.

Results

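The response to 3 h of bicuculline plus 4-aminopyridine (Bic/4AP) was read in cultured mouse hippocampal neurons that carried a short hairpin RNA against Kdm6b. It rests on 2 of the study's 4 RNA sequencing libraries, the hairpin culture left untreated and the hairpin culture given Bic/4AP. The other 2 libraries are the same pair of treatments in cultures that carried the empty pLKO.1 lentiviral vector, and they share no library with the hairpin pair. All 4 cultures were made from the dissociated hippocampus of newborn (P0) pups of CD1, an outbred strain, and were infected with lentivirus on day 4 in vitro. On day 11 the treated cultures received 4-aminopyridine at 2.5 mM and bicuculline at 50 µM (the labels write the unit as µm, read here as micromolar), and all were harvested at that age. The labels name 1 hairpin sequence, no second hairpin and no rescue, and they do not say how many pups or dishes went into a library. With 1 library per group no difference was tested, and no value below carries a replicate error or a p-value.

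Levels are FPKM, fragments per kilobase of transcript scaled to the mapped total, which are corrected for transcript length and can be set side by side between genes. A gene was compared when its FPKM reached 1 in at least 1 of the 2 hairpin libraries, which held for 13320 of 22492 gene symbols in the tables. Genes for small RNAs and genes with a failed estimate were left out. A difference is Bic/4AP minus untreated in log2(FPKM + 1). This scale understates differences of weakly expressed genes. A gene is called 2-fold higher or lower from a difference of 1 or -1, whereas a fold is the plain ratio of the 2 FPKM. Where a pair of values is given for a gene, it is the FPKM untreated and then with Bic/4AP, with the hairpin unless the vector is named, and a single number is the difference.

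Bicuculline blocks GABA-A receptors, the main inhibitory receptors of the forebrain, and 4-aminopyridine blocks voltage-gated potassium channels, so that networks of cultured neurons fire in bursts. The resulting calcium entry is known to switch on immediate-early genes, many of them transcription factors, through CREB, SRF and MEF2 without new protein synthesis. Later genes follow, which encode secreted, synaptic and signalling proteins. Kdm6b, also called Jmjd3, removes methyl groups from lysine 27 of histone H3, a mark laid down by Polycomb repressive complex 2, and is itself known to respond to inflammatory and neuronal stimuli.

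The sequence of the hairpin is shown because both libraries of the comparison carry it. The labels give it as 21 bases, and a search of 141767 mouse transcripts (GENCODE release M21, build GRCm38) found 0 exact matches on either strand. Its nearest sense match in Kdm6b had 18 of 21 positions in common, all at the 5′ end. The capitals in the second line mark the bases that differ.
hairpin sequence in the labels: ctgttcttgagggacaaactc
nearest site in Kdm6b: ctgttcttgagggacaaaAGT
Counted from 1 at the 5′ end of the labels' sequence, the differences are C19A, T20G and C21T. The site lies at chr11:69404988-69405008 on the minus strand, in exon 11 of 23 of the Kdm6b transcript and within the coding sequence. No transcript had fewer than 3 mismatches on either strand. With 3, 1 other gene, Ppnr, had a sense match and 4 genes had an antisense match.

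Kdm6b itself stood at 6.74 FPKM in the untreated vector culture and at 13.1 in the stimulated one. The hairpin libraries held 2.73 untreated, with a lower and upper bound in the deposited table of 2.55 and 2.92. With Bic/4AP the level was 4.83, bounded by 4.58 and 5.08. Such bounds describe how well 1 library fixes its own value, from read numbers and their assignment, and say nothing of a repeat culture. Kdm6b was thus below the vector level in both hairpin libraries, and its own difference with Bic/4AP was 0.64, under the 2-fold limit.

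Of the 13320 genes compared, 277 (2.08%) stood 2-fold higher with Bic/4AP and 21 (0.158%) 2-fold lower. Larger differences were few: 79 genes reached 2, 21 reached 3, 10 reached 4 and 5 reached 5. Most genes moved little, with 90.7% within 0.5 of 0 and a median of -0.08, and 34.7% lay above 0. The 2-fold higher genes made up 93.0% of the 2-fold genes with the FPKM as deposited. That share was 78.8% with a pseudocount of 0.1 in place of 1 and 80.5% after scaling both libraries to a common sum. Small RNA genes, which are outside the comparison, held 4.97% of the summed FPKM untreated and 14.2% with Bic/4AP in the hairpin cultures. Keeping them gave a share of 78.9%, and the common-sum scaling, which counts them, moved the all-gene median to -0.24. List medians below are therefore read against the all-gene median of -0.08. The 277 higher genes together held 0.903% of summed FPKM untreated and 3.40% with Bic/4AP.

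**Figure D1:**
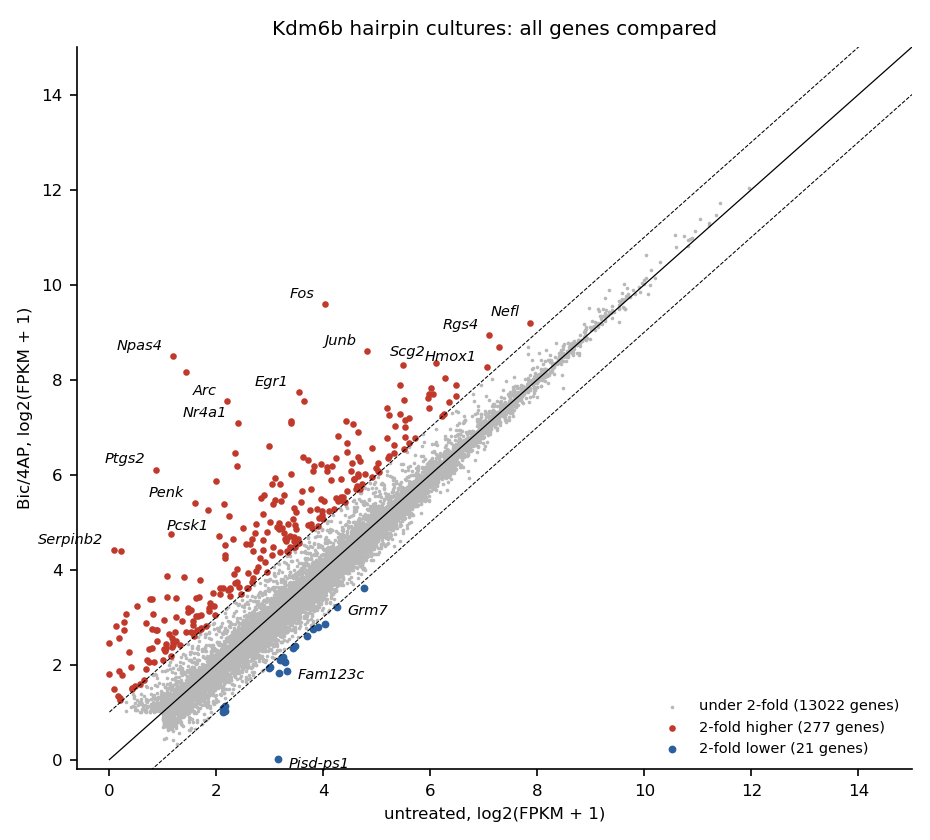
Level of each of the 13320 genes compared in the untreated (horizontal axis) and Bic/4AP (vertical axis) hairpin libraries, in log2(FPKM + 1), with 1 point per gene and 1 library per axis. The solid line marks equal levels and the dashed lines a difference of 1, and 277 genes lie above the upper dashed line against 21 below the lower one.

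The bounds of the authors also give an effective number of fragments behind each level, taken as the number whose doubled square root spans the distance from the value to its upper bound. Summed over genes it came to 45691588 untreated and 43608685 with Bic/4AP. Among the 277 higher genes, 271 had bounds that did not overlap between the hairpin libraries, as did all 21 lower ones. Both sets were picked for a large difference and the share over all genes compared is not given, so these counts add no support. The 21 also include Pisd-ps1, whose level with Bic/4AP is uncertain. In bulk RNA of this kind, fewer cells of a type and less RNA per cell cannot be told apart.

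The largest difference belonged to Npas4, a neuron-enriched transcription factor that couples firing to the number of inhibitory synapses (chromosome 19, 4984355 to 4989971 in build mm9). Its FPKM was 1.52 and 340.1 with the vector and 1.28 and 359.7 with the hairpin. The hairpin values rest on 195 and 52282 effective fragments, and their ratio was 281. Next came Fosb, a partner of Jun proteins in the AP-1 complex, at 2.91 and 287 with the vector and 1.69 and 286 with the hairpin. Fos, its paralogue, was at 12.5 and 771 with the vector and 15.3 and 765 with the hairpin, so that its fold of 50.0 is smaller than that of Fosb although its stimulated level is the highest of all 2-fold higher genes. With Bic/4AP Fos ranked 45 among all genes by FPKM. Arc, which drives AMPA receptor endocytosis, was at 4.89 and 165 with the vector and 3.61 and 185 with the hairpin. Ptgs2, the inducible cyclooxygenase, was at 1.63 and 55.5 with the vector and 0.823 and 67.7 with the hairpin, and Nr4a1, an orphan nuclear receptor, at 4.25 and 124 with the vector and 4.26 and 135 with the hairpin. In each of these 6 genes both stimulated libraries lie far above both untreated ones.

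Serpinb2, an inhibitor of plasminogen activators, was at 0.106 and 4.47 with the vector and 0.0569 and 20.2 with the hairpin. Its untreated hairpin value rests on 4.18 effective fragments, with authors' bounds from 0.00125 to 0.113, and the fold of 354 is correspondingly loose. The neutrophil chemokine gene Cxcl2 had 7 effective fragments untreated and 831 with Bic/4AP, at 0.0957 and 11.0 with the vector and 0.160 and 19.98 with the hairpin. Both genes were close to the floor at rest, and the size of their fold depends on few reads. Penk, the precursor of enkephalins, was at 2.63 and 18.7 with the vector and 2.02 and 41.3 with the hairpin, and the chemokine gene Ccl2 at 4.12 and 63.9 with the vector and 6.92 and 95.9 with the hairpin. The remaining genes among the 20 largest differences were transcription regulators apart from Cxcl1: Egr1, Egr4, Nr4a2, Klf4, Junb, Maff, Atf3, Egr2 and Csrnp1, with differences between 3.41 (Csrnp1) and 4.18 (Egr1).

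**Figure D2:**
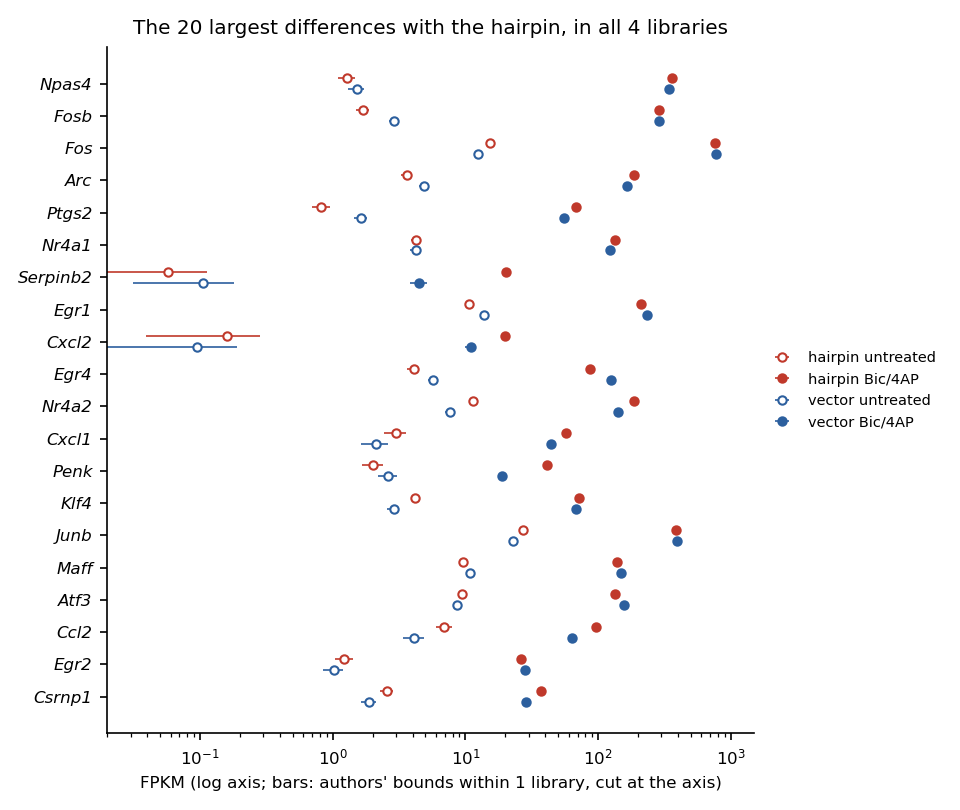
FPKM (horizontal log axis) of the 20 genes with the largest Bic/4AP difference in hairpin cultures, in all 4 libraries, with hairpin libraries in red, vector libraries in blue, untreated open and Bic/4AP filled. Bars are the authors' bounds within 1 library, and in all 20 genes both filled points lie to the right of both open points.

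Transcription factor families differed in how many of their members took part. All 3 Nr4a nuclear receptors were 2-fold higher (median 3.91): Nr4a1 at 4.69, Nr4a2 at 3.91 and Nr4a3 at 2.23. The 4 Egr zinc finger factors were all 2-fold higher as well, from 2.27 for Egr3 to 4.18 for Egr1, while their corepressors Nab1 (0.37) and Nab2 (0.01) were not. Of 13 AP-1 and Maf family genes, 9 were 2-fold higher (median 2.04), among them Fosl1 (2.58), Fosl2 (2.04), Jun (1.77) and Mafk (1.08). Jund, the member that is expressed at rest in most cells, had a difference of 0.86, short of the limit, and the JUN dimerisation partner Jdp2 stood at -0.07 and Mafg at -0.19.

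In the Klf family 3 of 14 factors were 2-fold higher, Klf4 (3.80), Klf6 (1.73) and Klf5 (1.54), and the median was -0.13, or 0.081 among those with an FPKM of at least 5. Klf15 (-0.69) and Klf11 (-0.70) were the lowest. Of 17 genes of the SRF pathway and the Ier and Csrnp families, 6 were 2-fold higher, namely Csrnp1, Ier2 (2.22), Ier3 (1.82), Ier5 (1.16), Cyr61 (1.16) and Arid5a (1.13). The transcription factor SRF itself (0.07) and its coactivators Mkl1 (-0.45) and Mkl2 (-0.61) were not. The same held for CREB signalling, in which Creb1 stood at -0.45 and its coactivator Crtc1 at -0.51, whereas the salt-inducible kinases Sik1 (1.53) and Sik2 (1.25), which restrain CRTC proteins, were 2-fold higher. Among the circadian clock genes, 2 of 18 passed: Nfil3, a repressor, at 7.51 untreated and 59.9 with Bic/4AP, and Rorb at 2.65 and 8.07. Npas4 was the 1 higher gene of 7 in its list of relatives and partners, with Npas2 lowest at -0.52. Sox11 (1.28) and Sox4 (1.23), factors of immature neurons, were the higher 2 of 12 Sox genes, and no forebrain neuron factor of 24 and no Notch, Hes or Id gene of 15 was.

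Promoters of higher genes were searched for sites of these factors, and 5 are shown because each holds a site of a different activity-linked factor or belongs to a secretory gene described below. The sequences are RefSeq's (build GRCm38.p6), 250 bases before to 50 after an annotated start. Capitals mark a CRE in Pcsk1 and Scg2, an AP-1 site in Serpinb2, overlapping NF-kB sites in Cxcl2 and a CArG box, the SRF site, in Egr2.
Pcsk1, chr13:75089607-75089906, plus strand: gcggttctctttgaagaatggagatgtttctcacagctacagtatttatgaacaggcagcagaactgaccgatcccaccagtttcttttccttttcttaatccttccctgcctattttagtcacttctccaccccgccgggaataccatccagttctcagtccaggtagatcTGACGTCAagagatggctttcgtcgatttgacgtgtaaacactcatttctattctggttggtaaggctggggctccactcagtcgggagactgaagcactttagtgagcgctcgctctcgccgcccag
Scg2, chr1:79439977-79440276, minus strand: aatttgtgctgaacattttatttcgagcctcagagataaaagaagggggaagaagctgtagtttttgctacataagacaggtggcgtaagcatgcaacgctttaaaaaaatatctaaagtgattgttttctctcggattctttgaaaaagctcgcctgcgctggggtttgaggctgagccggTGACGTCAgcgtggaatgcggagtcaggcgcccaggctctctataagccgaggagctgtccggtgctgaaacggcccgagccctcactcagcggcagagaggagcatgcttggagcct
Serpinb2, chr1:107511173-107511472, plus strand: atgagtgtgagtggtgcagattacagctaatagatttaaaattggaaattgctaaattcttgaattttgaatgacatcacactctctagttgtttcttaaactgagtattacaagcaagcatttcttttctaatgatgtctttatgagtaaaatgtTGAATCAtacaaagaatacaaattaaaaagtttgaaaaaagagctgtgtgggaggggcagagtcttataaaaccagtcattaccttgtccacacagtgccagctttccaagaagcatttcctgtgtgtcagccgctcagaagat
Cxcl2, chr5:90903649-90903948, plus strand: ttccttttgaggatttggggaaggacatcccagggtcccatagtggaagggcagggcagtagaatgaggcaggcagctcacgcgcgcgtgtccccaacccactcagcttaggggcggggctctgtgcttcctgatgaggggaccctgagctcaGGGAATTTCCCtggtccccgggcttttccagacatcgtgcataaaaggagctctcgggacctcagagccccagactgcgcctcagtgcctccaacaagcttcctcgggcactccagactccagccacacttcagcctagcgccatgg
Egr2, chr10:67537680-67537979, plus strand: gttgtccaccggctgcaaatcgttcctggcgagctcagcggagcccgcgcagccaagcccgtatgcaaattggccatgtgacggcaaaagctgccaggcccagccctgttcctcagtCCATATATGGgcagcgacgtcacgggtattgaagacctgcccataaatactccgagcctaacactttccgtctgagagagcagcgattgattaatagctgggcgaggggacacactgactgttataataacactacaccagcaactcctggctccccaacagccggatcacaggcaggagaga
Of the 277 higher genes 203 had a promoter in that table, with 247 starts in all, and of the 13320 genes compared 10519 did, through 10490 entries of the table with 13472 starts. Arc, Egr1, Vgf, Penk and Nefl are among the genes not shown here.

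The full CRE (TGACGTCA) was present in 21 of those 247 promoters (8.50%), in 3.04% of promoters of the genes compared and in 1.79% of all 32851 promoters. The AP-1 motif (TGANTCA) was in 34 (13.8%), against 5.05% and 7.81%, and the CArG box (CC, then 6 bases of A or T, then GG) in 7 (2.83%), against 1.25% and 1.63%. NF-kB sites were in 39 (15.8%), against 10.7% and 8.46%, and the Egr motif (GCGTGGGCG) in 4 (1.62%), against 1.15% and 0.612%. TATAAA, the core of the TATA box, was in 50 (20.2%), against 7.33% and 13.6%. The heat-shock element (GAA, 2 free bases, TTC, 2 free bases, GAA) was in 0 of 247, against 0.460% and 0.603%. Each motif was read on both strands. Neighbouring starts of a gene share sequence, as in Egr2, so these shares describe the windows and were not tested. Among the 79 genes with a difference of at least 2, 12 of 82 promoters (14.6%) held the CRE. The 21 promoters of lower genes held 0.

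Some negative regulators of signalling were 2-fold higher, and most were not. Of 17 Dusp phosphatase genes, which switch off MAP kinases, 5 were 2-fold higher and 8 lay below 0. Dusp4 was at 9.45 untreated and 63.9 with Bic/4AP and Dusp1 at 12.1 and 78.3, followed by Dusp6 (2.03), Dusp5 (2.0) and Dusp10 (1.06). Dusp7, an ERK phosphatase, was 2-fold lower, at 8.47 and 3.45. In the list of Sprouty, Spred and Trib genes and genes of small GTPase signalling, not all of them negative regulators, 9 of 22 were higher. The median was 0.69. Errfi1, an inhibitor of the EGF receptor, stood at 11.3 and 81.8, Trib1, a pseudokinase, at 6.402 and 46.2, and Spry2 at 19.2 and 58.6. The calcium channel inhibitors of the RGK family, Rrad (2.18) and Gem (1.18), were among the 9, as were Rasgef1b (1.62), Rasd1 (1.29), Rnd3 (1.19) and Rasl11a (1.08).

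Rgs2 (36.6 and 151), Rgs4 (136 and 491) and Rgs16 (5.70 and 14.6), which speed the shut-off of G proteins, were the higher 3 of 15 Rgs genes. Growth arrest genes had a median of 0.46 with 14 of 15 above 0, and 5 were 2-fold higher: Gadd45b (2.53), Gadd45g (2.47), Btg2 (2.08), Btg1 (1.85) and Gadd45a (1.62). Zfp36, which directs the decay of mRNAs with AU-rich elements, was the 1 higher gene of 21 mRNA decay factors, at 3.79 and 11.1. Among the kinases, Pim1 (2.89), Plk2 (1.72) and Sgk1 (1.17) were the higher 3 of 24, and Camk2a (-0.20) and Camk1g (-0.80) lay below 0. No gene of 24 in the cAMP and phosphodiesterase list reached 2-fold, with Pde4b closest at 0.98.

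Synaptic effectors of activity split between a few strongly higher genes and a remainder that lay mostly below 0. In the list of Arc, Homer, pentraxin and scaling genes 7 of 15 were 2-fold higher. Homer1, whose short form is known to dissolve postsynaptic scaffolds, was at 22.0 and 105 with the vector and 20.3 and 138 with the hairpin. Pcdh8, a cadherin that promotes removal of N-cadherin, was at 40.0 and 134 with the vector and 35.5 and 167 with the hairpin, and Nptx2, a pentraxin that clusters AMPA receptors, at 21.1 and 54.2 with the vector and 15.7 and 65.9 with the hairpin. Syt4 (2.05), Nrn1 (1.65) and Lrrtm2 (1.15) completed the higher members, while the related pentraxin gene Nptx1 stood at -0.63. Lrrtm2 overlaps the locus of the more abundant gene Ctnna1. Whether their exons overlap was not examined, and the strand of the reads is not given. Among growth factors, Bdnf, the neurotrophin of activity-dependent plasticity, was at 17.1 and 60.4 with the vector and 17.7 and 80.0 with the hairpin. Its receptor gene Ntrk2 (0.19) was not 2-fold apart, nor were the neurotrophin gene Ntf3 (-0.72) and its receptor gene Ntrk3 (-0.22). Inhba, the activin A subunit, was the 1 higher gene of 11 in its list (2.23 and 12.8), with its antagonist Fst at 0.56 and the activin receptor gene Acvr2a at -0.36. Bmp2 (2.27 and 7.19) was the 1 higher gene of 34 in the TGF-beta, BMP and Smad list.

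Many neuropeptide precursors stood higher. Of 19 measured, 7 were 2-fold higher and 14 lay above 0, with a median of 0.80. Beside Penk, Trh, the thyrotropin-releasing hormone precursor, was at 0.357 and 8.87 with the vector and 0.240 and 7.33 with the hairpin. Adcyap1, which encodes the neuropeptide PACAP, was at 5.89 and 23.2 with the vector and 3.46 and 21.9 with the hairpin. Cartpt, the CART precursor, was at 5.04 and 11.0 with the vector and 3.45 and 18.8 with the hairpin, and Tac1, the substance P precursor, at 27.7 and 62.2 with the vector and 11.0 and 41.7 with the hairpin. For these 4 genes each stimulated library lay above the untreated library of the same virus. The untreated hairpin level was below the untreated vector level in each of them, and the stimulated hairpin level was below the stimulated vector level for Trh, Adcyap1 and Tac1 but not for Cartpt. Nts (neurotensin, 1.49) and Crh (corticotropin-releasing hormone, 1.22) were the other two. The abundant interneuron peptides Sst and Npy did not reach 2-fold, with Sst at 539 and 542 with the vector and 225 and 413 with the hairpin and Npy at 162 and 179 with the vector and 58.2 and 102 with the hairpin.

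The median of the 19 neuropeptide differences was 0.01 with the vector, where 4 were 2-fold higher. Inhibitory neuron markers, 5 of which (Sst, Npy, Cort, Vip and Cck) are peptide genes, summed to 729 FPKM untreated and 1003 with Bic/4AP with the hairpin. With the vector they summed to 1442 and 1425. Most of the hairpin difference in that sum lay in Sst and Npy, which belong to both lists. The 12 genes of GABA synthesis, transport and GABA-B receptors, with 8 below 0 and a median of -0.15, summed to 557 and 533 with the hairpin and to 804 and 717 with the vector. Gad1, which makes GABA, was at 139 and 146 with the vector and 64.5 and 88.0 with the hairpin, and Dlx5, an interneuron transcription factor and the largest difference among these markers, at 5.0 and 8.93 with the vector and 3.55 and 7.99 with the hairpin. For Gad1, Sst and Npy the untreated hairpin library was the lowest of the 4, with its Bic/4AP partner between it and the vector pair. For Dlx5 each stimulated library lay above both untreated ones. Whether the makeup of the cultures has a part in the difference between the medians was not tested.

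The machinery that matures peptides showed 3 higher genes of 13. Pcsk1, a prohormone convertase that cleaves peptide precursors, was at 7.67 and 19.5 with the vector and 3.14 and 25.2 with the hairpin. Scg2, secretogranin II, was at 84.9 and 304 with the vector and 67.4 and 327 with the hairpin, and Vgf, another granin-like precursor, at 81.8 and 195 with the vector and 62.2 and 168 with the hairpin. Scg2 thus stayed near the same stimulated level in both cultures, whereas Pcsk1 began lower and ended higher with the hairpin. The convertase Pcsk2 (-0.50), the carboxypeptidase Cpe (0.11) and the granins Chga (0.08) and Chgb (0.02) did not reach 2-fold.

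**Figure D3:**
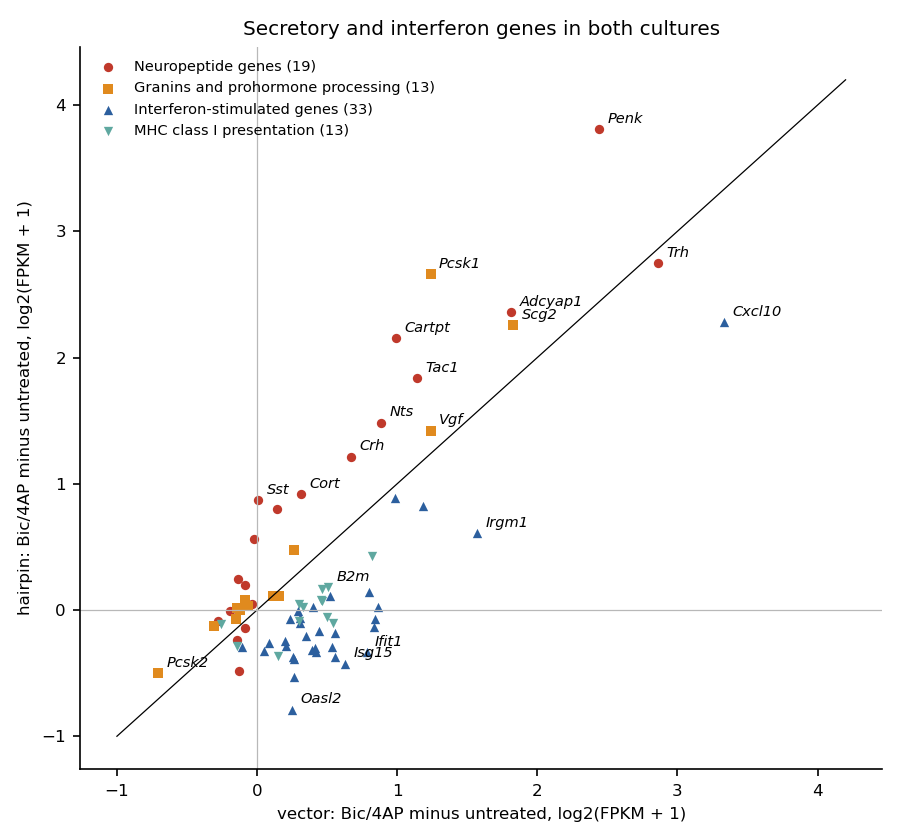
Bic/4AP minus untreated in log2(FPKM + 1) with the vector (horizontal axis) and with the hairpin (vertical axis), with 1 point per gene for 4 gene lists. On the diagonal both responses are equal; the 7 neuropeptide genes 2-fold higher with the hairpin lie above it apart from Trh, and all 33 interferon-stimulated genes lie below it.

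Secreted inflammatory signals were prominent. Chemokine genes had a median of 0.53, and 7 of 17 were 2-fold higher, with 14 above 0. Besides Cxcl2 and Ccl2, Cxcl1 was at 2.12 and 44.1 with the vector and 3.00 and 56.9 with the hairpin, Ccl7 at 1.20 and 19.5 with the vector and 1.12 and 13.6 with the hairpin and Ccl5 at 1.03 and 4.96 with the vector and 0.431 and 8.34 with the hairpin. Cxcl10 was at 3.99 and 49.3 with the vector and 12.9 and 66.4 with the hairpin and Cxcl11 had a difference of 1.55, while Cxcr4, the receptor of Cxcl12, stood at -0.48. Ccl2 and Ccl7, Cxcl1 and Cxcl2, and Cxcl10 and Cxcl11 are neighbours within 100 kb of each other. Of 26 cytokine and gp130 pathway genes 6 were 2-fold higher and 22 lay above 0 (median 0.41). Il6 was at 0.0912 untreated, from 4 effective fragments, and at 6.01 with Bic/4AP. Il11 was at 0.210 and 6.496, Lif at 2.14 and 7.18, and the receptor gene Osmr at 22.8 and 59.1. Cebpb (1.43), a transcription factor downstream of these cytokines, and Clcf1 (1.03) made up the 6.

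NF-kB genes had a median of 0.62, with 7 of 21 2-fold higher and 19 above 0. They included the subunits Nfkb1 (1.02) and Nfkb2 (1.07), the feedback inhibitors Nfkbiz (1.58), Nfkbie (1.06) and Tnfaip3 (1.40), and the targets Icam1 (1.26) and Tnfaip2 (1.24). Nfkb2 overlaps the more abundant gene Psd. In the prostaglandin list Ptgs2 and the receptor gene Ptger4 (0.344 and 1.795) were 2-fold higher of 10, and the synthase Ptges stood at -0.05. The 12 microglia and macrophage markers measured summed to 47.4 FPKM untreated and 57.5 with Bic/4AP with the hairpin, and to 125 and 139 with the vector. No marker was at 0 in the hairpin libraries: the complement gene C1qa was at 4.66 and 4.72, while Cx3cr1, Csf1r, Itgam and Tmem119 stayed under an FPKM of 1. Which cells in these mixed cultures made the chemokine and cytokine RNA was not tested.

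Interferon-stimulated genes differed in direction between the 2 responses. With the hairpin 25 of 33 lay below 0 with Bic/4AP and the median was -0.21, below the all-gene median. Cxcl10 was the 1 gene of the list 2-fold higher. With the vector the median was 0.42. The signs did not depend on which of the 4 scalings was used for the hairpin. Isg15, a ubiquitin-like modifier, was at 12.8 and 20.4 with the vector and 35.3 and 26.0 with the hairpin, and Ifit1, an antiviral RNA sensor, at 4.49 and 8.43 with the vector and 14.1 and 11.0 with the hairpin. Oasl2, an oligoadenylate synthetase relative, was at 6.15 and 7.51 with the vector and 16.3 and 9.04 with the hairpin. In all 3 both hairpin libraries exceeded both vector libraries, with the untreated hairpin culture highest. The largest differences after Cxcl10 were Irf1, an interferon regulatory factor (0.89, vector 0.99), and Gbp2, a guanylate-binding protein (0.83, vector 1.19), which lay above 0 in both responses. Outside the list, Gbp5, a relative of Gbp2 (1.44, vector 1.53), and the chemokine gene Cxcl11 (1.55, vector 1.04) were 2-fold higher in both responses. Summed over the list, FPKM was 718 untreated and 718 with Bic/4AP with the hairpin, and 451 and 677 with the vector. The 13 genes of MHC class I presentation had a median of 0.03 with the hairpin, a sign that flips under scaling to a common sum, and of 0.45 with the vector. B2m, the light chain of MHC class I, was at 477 and 677 with the vector and 625 and 709 with the hairpin. Whether the 2 responses differ beyond the spread between cultures could not be tested.

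Proteases, matrix genes and growth factors made a smaller group. Of 28 plasminogen, metalloproteinase and Adamts genes, 7 were 2-fold higher although the list median was -0.01, a sign that flips under other scalings. Beside Serpinb2 they included the aggrecanase Adamts4 (0.737 and 5.74), Adamts8 (1.36), Adamts1 (1.13), the inhibitor Timp1 (10.3 and 27.9) and the urokinase receptor gene Plaur (1.23). Timp1 overlaps the locus of Syn1, a more abundant synaptic gene. Whether their exons overlap was not examined, and the strand of the reads is not given. Among 28 growth factor genes, Areg (1.91), Kitl (1.64), Hbegf (1.56) and Fgf9 (1.40) were 2-fold higher. Hbegf was at 54.3 and 157 with the vector and 21.8 and 66.4 with the hairpin, so its stimulated hairpin level was near its untreated vector level.

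Stress genes stood higher in part. Of 24 heat-shock genes 5 were 2-fold higher and 20 lay above 0 (median 0.16, and -0.03 after scaling to a common sum). The inducible HSP70 genes Hspa1a (7.94 and 28.1) and Hspa1b (10.03 and 29.6) are near-identical neighbours, so their separate values are uncertain. The HSP40 genes Dnajb1 (28.8 and 93.0) and Dnajb4 (45.2 and 109.7) and the cochaperone Bag3 (1.39) were the other three. The heat-shock factor gene Hsf1 (-0.02) did not differ by 2-fold. In the integrated stress and unfolded-protein list 3 of 32 were 2-fold higher and 25 lay above 0 (median 0.24). These were Ppp1r15a (1.61), which reverses eIF2 alpha phosphorylation, and the transcription factors Ddit3 (1.37) and Atf4 (80.5 and 184). Asns (-0.11), a classical ATF4 target chosen after its value was seen, was not among them. Whether ATF4 targets as a group differed was not tested. Of 23 p53 targets, 4 were 2-fold higher (median 0.25), and Btg2, Plk2 and Gadd45a of these are also in lists above. The last, Pmaip1 (1.0), encodes a pro-apoptotic BH3 protein and was the 1 higher gene of 23 pro-apoptotic genes, in which Bbc3 stood at -0.70. Bag3 was the 1 of 12 anti-apoptotic genes.

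Each metabolic list held 0 to 2 genes that were 2-fold higher, beside a share of 2.08% over all genes compared. Hk2, hexokinase 2, was at 2.67 and 8.77 and the neuronal glucose transporter gene Slc2a3 at 73.1 and 149, the higher 2 of 26 glycolysis and lactate transport genes. Insig1, a feedback inhibitor of sterol synthesis, was the 1 of 32 cholesterol genes, at 47.4 and 101, with Idi1 close to the limit (0.98). Sat1, which degrades polyamines, was 1 of 2 higher genes among 11 in the polyamine list, at 74.9 and 153. Amd1, the other 2-fold polyamine gene, was listed near 0 in 3 libraries and at 2.49 here, and overlaps the near-identical Amd2 (0.53), so its value is uncertain. None of 35 oxidative phosphorylation genes and none of 38 cytosolic ribosomal protein genes was 2-fold apart, which lists of this size can show at the all-gene share. Their differences ran from -0.15 to 0.21 and from -0.46 to 0.21. Pcna (47.5 and 146), the DNA polymerase clamp, was the 1 higher gene of 27 proliferation genes.

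Against these groups, genes of the resting neuron lay mostly lower, and by small amounts. All 8 sodium channel genes, all 13 calcium channel genes and all 6 metabotropic glutamate receptor genes measured lay below 0, with medians of -0.24, -0.21 and -0.48. Below 0 lay also 46 of 55 potassium and HCN channel genes (median -0.21), 18 of 22 AMPA, NMDA and kainate receptor and TARP genes (-0.21) and 10 of 12 GABA-A subunit genes (-0.29). The same held for 30 of 34 synaptic vesicle genes (-0.19), 31 of 35 postsynaptic scaffold and adhesion genes (-0.25) and 47 of 56 axon guidance genes (-0.24). Over all genes, 8697 of 13320 lay below 0, and the signs of these 9 medians held under the 3 other scalings. After scaling by the median of ratios, which sets the all-gene median to 0.00, they ran from -0.42 to -0.10. With the vector, as deposited, each of the 9 medians lay further below 0 than with the hairpin. They ran from -0.32 for axon guidance to -0.52 for metabotropic glutamate receptors, beside an all-gene median of -0.07. This difference between the responses was not tested.

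Scn3a, the embryonic sodium channel gene, was at 6.78 and 2.98 with the vector and 7.47 and 3.39 with the hairpin. Lrfn2, a synaptic adhesion gene, was at 10.2 and 4.65 with the vector and 8.11 and 3.95 with the hairpin, and Kcnv1, a silent potassium channel subunit, at 6.53 and 3.06 with the vector and 6.18 and 2.63 with the hairpin. Both untreated libraries exceeded both stimulated ones in these 3 genes, each short of the 2-fold limit. Gabrb2, a GABA-A subunit, stood at -0.62 and Gria2, the AMPA receptor subunit that limits calcium entry, at -0.41. Among channels Kcnj2, an inward rectifier, was the exception at 1.57 and 6.67 with the vector and 1.76 and 8.19 with the hairpin, and in the adhesion list Lrrtm1, a neurexin ligand, at 34.6 and 76.3 with the vector and 35.3 and 108 with the hairpin. Both stimulated libraries were higher than both untreated ones in these 2 genes. G protein-coupled receptor genes lay on both sides, with 4 of 51 2-fold higher and 3 lower (median -0.29). Gpr3, a constitutively active receptor that raises cAMP, was at 2.20 and 9.73, and Gprc5a at 0.755 and 7.36. Sstr1, a somatostatin receptor, stood at 14.6 and 43.7 while Sstr3 stood at 3.34 and 0.988, so that 2 receptors of 1 peptide family lay on opposite sides. Gpr85 (1.32) was the last of the higher ones.

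**Figure D4:**
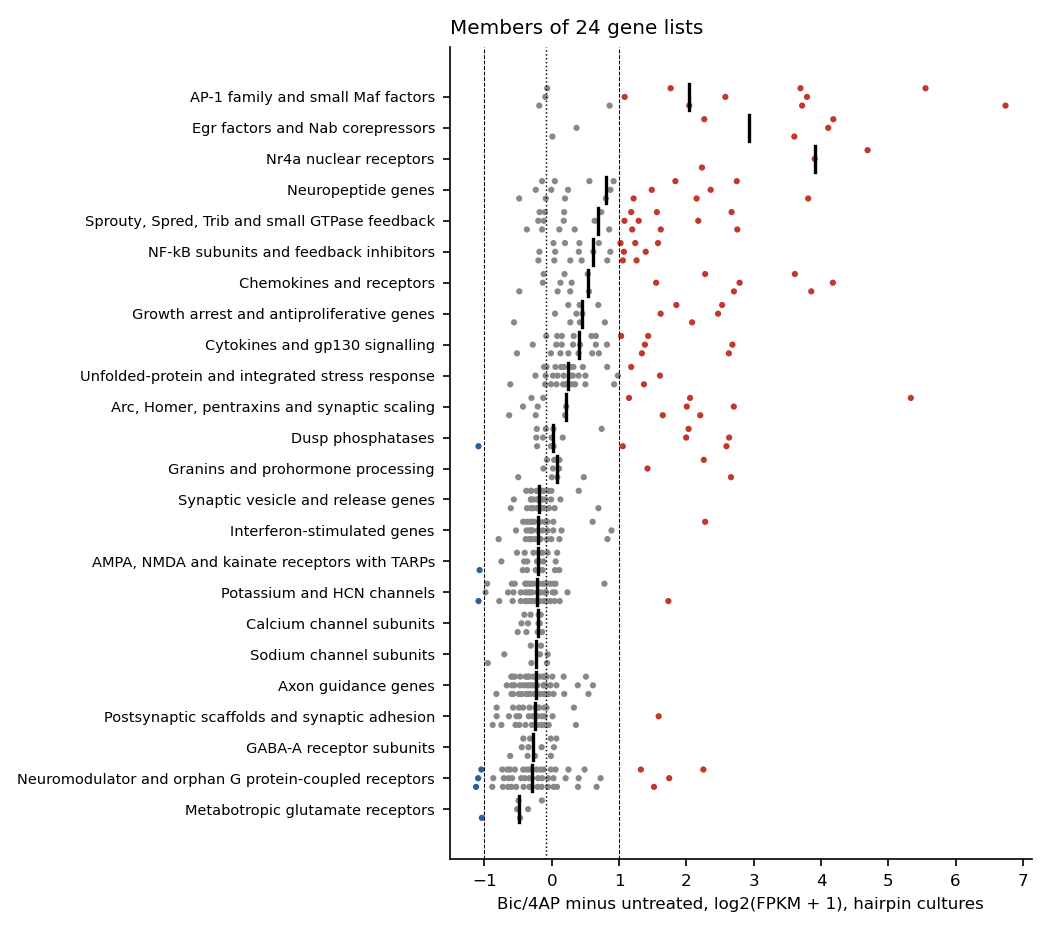
Difference of each measured member of 24 gene lists in hairpin cultures (horizontal axis, Bic/4AP minus untreated in log2(FPKM + 1)), with 1 point per gene, red from 1 up and blue from -1 down, and a black bar at the list median. The dotted line is the all-gene median of -0.08; the medians run from 3.91 (Nr4a) to -0.48 (metabotropic glutamate receptors).

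The 21 genes 2-fold lower were mostly of middling level, with a median FPKM of 8.60 untreated and 3.19 with Bic/4AP. Leaving Pisd-ps1 aside, the lowest was Fam123c, at 9.86 and 2.82 with the vector and 9.0 and 2.64 with the hairpin. Cecr6 was at 8.58 and 2.99 with the vector and 7.97 and 2.52 with the hairpin and Larp6, an RNA-binding protein of collagen mRNAs, at 9.94 and 4.62 with the vector and 8.75 and 3.17 with the hairpin. In all 3 both stimulated libraries lie below both untreated ones. Sh3bp5, a JNK-binding mitochondrial protein, was at 33.3 and 14.8 with the vector and 26.0 and 11.2 with the hairpin, the highest untreated level of the 21. Receptor and channel genes among the 21 were Sstr3, the nociceptin receptor gene Oprl1 (11.9 and 5.05), the orphan receptors Gpr12 (-1.05) and Gpr61 (-1.04), the glutamate receptor gene Grm7 (18.0 and 8.25), the TARP gene Cacng5 (-1.07) and the silent potassium channel subunit gene Kcng1 (-1.09). Transcription factor genes were Zkscan16 (-1.13), Zfp354c (-1.11) and Mycl1 (-1.08). The rest were Chst12 (-1.20), a chondroitin sulfotransferase, Rab40b (-1.17), Prr12 (-1.09), Lzts1 (-1.04), Gm1568 (-1.04) and Dusp7. With the vector 13 of the 21 were 2-fold lower too, and 7 of the other 8 lay below 0. The all-gene median with the vector was -0.07, so a value below 0 was common.

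Pisd-ps1, a pseudogene copy of the phosphatidylserine decarboxylase gene, was at 7.47 and 8.34 with the vector and 7.85 and 0.00172 with the hairpin. The last value rests on fewer than 1 effective fragment. Reads of near-identical copies can be assigned to either, so it is uncertain.

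**Figure D5:**
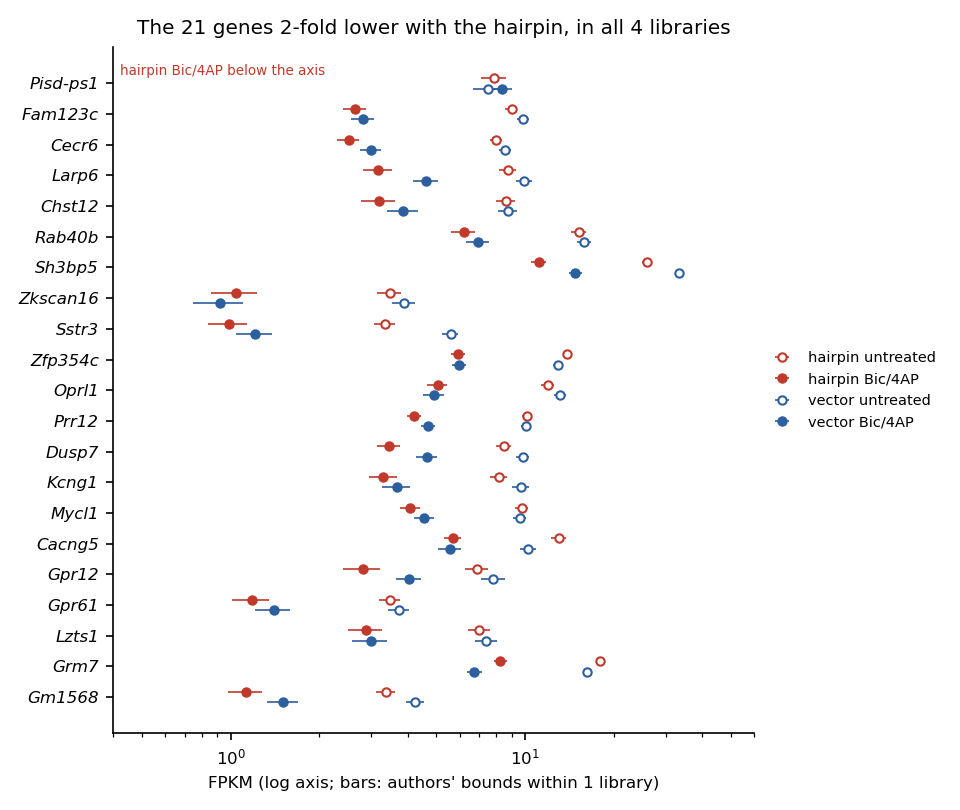
FPKM (horizontal log axis) of the 21 genes 2-fold lower with Bic/4AP in hairpin cultures, in all 4 libraries, with hairpin red, vector blue, untreated open and Bic/4AP filled. Bars are the authors' bounds within 1 library; apart from Pisd-ps1, every filled point lies left of both open points of its gene.

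Few histone-modifying genes were 2-fold apart, but over all genes compared only 2.08% were higher and 0.158% lower. Low counts in lists of this size therefore say little. No gene of 14 in the list of H3K27 demethylases and PRC2 members was 2-fold apart. Their median was 0.18, beside -0.08 for all genes, and 0.00 after scaling to a common sum, beside -0.24. Jarid2, a PRC2 cofactor, was closest at 5.30 and 9.84 with the vector and 6.47 and 12.7 with the hairpin, and Ezh2, its methyltransferase, was at 5.20 and 10.01 with the vector and 7.51 and 11.4 with the hairpin. Kdm6a, the X-linked relative of Kdm6b, stood at 5.63 and 5.67 with the vector and 6.95 and 6.87 with the hairpin, with each virus pair nearly equal. None of 18 other lysine demethylases was 2-fold apart, with Jmjd1c at 0.84 and Kdm4a at -0.45. Baz1a, an imitation-switch remodeller subunit, was the 1 higher gene of 34 acetylation and remodelling genes, at 1.07 and 4.09, and the DNA demethylation gene Tet3 was at 0.70 against -0.52 for Tet1.

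The cultures were mixed. The neuronal release gene Snap25 stood at 417 and 429 FPKM and the astrocyte filament gene Gfap at 1533 and 1767 with the hairpin. Medians of marker differences were -0.01 for excitatory neurons, 0.27 for inhibitory neurons, 0.06 for astrocytes, -0.02 for microglia, 0.01 for the oligodendrocyte lineage, 0.16 for fibroblast and meningeal cells and -0.02 for ependyma and choroid plexus. The excitatory, astrocyte, microglial, oligodendrocyte and ependymal signs flip under other scalings. Endothelial and mural markers had 3 of 13 genes measured (median -0.16, and 0.026 over the list with no filter on level) and erythroid markers 1 of 9. The excitatory list held 2 genes that were 2-fold higher, the transcription factors Fezf2 (15.2 and 42.3) and Bhlhe22 (39.2 and 86.8), and no other marker reached 2-fold. Slc17a6, a vesicular glutamate transporter gene of that list, was at 6.26 and 6.66 with the vector and 5.02 and 8.73 with the hairpin. In the cytoskeleton list the neurofilament gene Nefl was 2-fold higher, at 258 and 529.5 with the vector and 233 and 586 with the hairpin, and with Bic/4AP it was second in level to Fos among the higher genes. Nefm, the medium neurofilament gene, was at 98.6 and 138 with the vector and 88.4 and 161 with the hairpin.

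Of the 277 higher genes 140 were in no list. The largest was Arl4d, a small GTPase of the plasma membrane, at 4.66 and 51.6 with the vector and 3.40 and 40.9 with the hairpin. Ifrd1, a transcriptional coregulator, was the most abundant of the leading ones, at 58.2 and 315 with the vector and 43.7 and 314 with the hairpin. Spty2d1, a histone chaperone, was at 5.56 and 50.5 with the vector and 7.18 and 54.7 with the hairpin, and B3galt2, a galactosyltransferase, at 8.10 and 36.5 with the vector and 6.11 and 44.4 with the hairpin. The GTPase gene Arl5b (2.62) and the hyaluronan-binding Tnfaip6 (2.62) followed. Matrix and secreted products were Col10a1 (2.46), Esm1 (2.38), the long pentraxin Ptx3 (23.98 and 119), Fgl2 (2.31), Ism1 (2.17) and the endothelial lipase Lipg (1.93).

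Enzymes among the unlisted genes included the polysialyltransferase St8sia4, at 4.32 and 12.4 with the vector and 1.64 and 13.3 with the hairpin, alpha-galactosidase A (Gla, 2.38), the tRNA methyltransferase Trmt61b (2.24) and the deiodinase Dio2, which makes active thyroid hormone (3.46 and 18.0). Antioxidant genes were high in level, with Hmox1, haem oxygenase 1, at 129.5 and 306 with the vector and 133 and 307 with the hairpin and Srxn1, sulfiredoxin, at 69.4 and 268 with the vector and 63.8 and 224 with the hairpin. Elongation and chromatin regulators were Aff1 (1.99), Ell2 (1.92) and Sap30 (2.30). The imprinted genes Peg10 (7.30 and 40.5) and Zdbf2 (5.64 and 26.1) stood higher, as did the telomere protein gene Tinf2 (2.36), the F-box gene Fbxo33 (2.37), the ubiquitin ligase gene Rnf217 (1.99) and Tiparp, a target of the aryl hydrocarbon receptor (2.06). Dlx1as, named as antisense to Dlx1, was at 12.5 and 51.0, and its reads could not be separated by strand here.

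The share of higher genes varied with level and gene length. Among 179 genes under an FPKM of 1 untreated, 21.8% were higher, but these passed the filter through their Bic/4AP level alone. The share was 2.52% from 1 to 5, 1.83% from 5 to 20, 1.51% from 20 to 100 and 0.465% at 100 and above. By length of the gene's locus the share was 5.11% under 5000 bp, 2.52% from 5000 to 20000, 1.22% from 20000 to 50000, 1.0% from 50000 to 150000 and 0.626% beyond. The median locus was 9241 bp for higher genes and 22544.5 bp for all. Of the higher genes 22 (7.94%) had another higher gene within 100 kb, against 755 (5.67%) of the genes compared. Litaf with Txndc11 was such a pair outside a family.

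Some higher genes are uncertain. In all 17 overlap a more abundant locus, among them Fosl1 (Ccdc85b), Rasd1 (Med9), Shc4 (Eid1) and Fam150b (Acp1). Whether exons overlap in these pairs was not examined. Sap18 overlaps Gm10094, Ptp4a1 overlaps Gm13363 and LOC624853 overlaps Hspa8, and the reads of each pair may have been split between them. Few fragments lay behind Gm12238 (0 untreated and 1 with Bic/4AP), LOC100302567 (1 and 2), Snhg9 (2 and 6), Gm14920 (1 and 18) and Pet117 (1.37 and 20.4). Without the genes under 30 effective fragments in both hairpin libraries, an alternative added after the data were seen, 272 higher and 21 lower genes were left.

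The vector response had 294 of 13217 genes (2.22%) above the 2-fold limit and 36 (0.272%) beyond it on the low side. In both responses 221 genes were higher. These are 79.8% of the hairpin's higher genes and 75.2% of the vector's. Most of the others missed the limit on 1 side only: of the 56 higher with the hairpin alone, 50 lay above 0 with the vector and 45 at 0.5 or more, and of the 73 higher with the vector alone, 68 lay at 0.5 or more with the hairpin. The 13 genes lower in both are 61.9% and 36.1% of the lower genes. Of the 23 lower with the vector alone, 20 lay below 0 with the hairpin. Over all 13320 genes compared, 672 lay at 0.5 or more with the hairpin and 8697 below 0. The same shares with the vector were not counted.

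The difference of the 2 responses (hairpin minus vector) was largest at genes with few reads or near-identical copies, apart from a few. Lrrc17, a secreted leucine-rich repeat protein, was at 19.6 and 7.92 with the vector and 14.2 and 33.0 with the hairpin, so that the stimulated library was the lower with the vector and the higher with the hairpin. Serpinb2, Pcsk1 and Penk had a larger difference with the hairpin, 4.32 against 2.31, 2.66 against 1.24 and 3.81 against 2.44. On the other side stood Ccno, a cyclin of multiciliated cells, at 2.26 and 16.0 with the vector and 12.1 and 29.8 with the hairpin, Ifit1, and the interferon-inducible GTPase gene Iigp1, at 4.48 and 5.99 with the vector and 13.7 and 7.85 with the hairpin. With Ccno the untreated hairpin level was above its untreated vector level, and the same was seen for Ifit1 and Iigp1. Atp6v0c-ps2, Hist1h4k, Gm5741, 4930562F07Rik, H2-T9 and the neuronal noncoding RNA gene Bc1 made up the extremes with the uncertain loci above. Whether any of these differences exceeds the variation between cultures could not be tested with 1 library per group.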

How the data were processed

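Polyadenylated RNA of the 4 cultures was sequenced from 1 library each, and the labels' treatment and virus set the groups. Build mm9 and the tools Cufflinks 2.0.2, TopHat2 2.0.8b and CASAVA 1.8 are listed per the submitters' processing notes, while their roles, the annotation and the strand of the reads are not given in the sources used here. The authors deposited 1 table of FPKM per library, with a lower and an upper bound for each value, per the file headers. No counts were used, so depth was taken from those bounds as an effective number of fragments, which was a whole number within 0.02 for 65.8 to 67.2% of the rows under 60. As the bounds also reflect how reads were assigned, it is not a pure count. It says nothing of the spread between cultures.

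Rows of a symbol were summed, and 731 small RNA symbols and 42 symbols with a failed estimate were left out. Differences are on the log2(FPKM + 1) scale, with a pseudocount of 1, for genes whose FPKM reached 1 in 1 or both hairpin libraries. There are no replicates, so no test was made and no paired analysis was possible. Tables were handled in Python 3.11.15 with pandas 2.3.3 and numpy 2.4.6, and the steps were tested on simulated data. Of 1420 symbols in 67 gene lists 1271 were compared, 130 were below the FPKM limit and 19 had no usable value.

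The genes and lists were chosen with earlier results of these data known. Genes to name were taken from the 20 largest differences, all 2-fold lower genes, the 2-fold members and the 2 largest and 2 smallest members of each list, the 30 largest unlisted differences, the 20 highest levels among the higher genes, and the 10 most different responses on each side. A few genes within these are not reported here. Amd2, Asns, C1qa, Camk2a, Chga, Chgb, Cpe, Creb1, Csf1r, Cx3cr1, Ezh2, Gbp2, Gbp5, Gfap, Hsf1, Isg15, Itgam, Jdp2, Jund, Kdm6a, Npy, Ntrk2, Ntrk3, Ptges, Snap25, Srf, Sst, Tmem119, Acp1, Ccdc85b, Cck, Ctnna1, Eid1, G3bp1, Gm14920, Hspa8, Litaf, Med9, Psd, Ptp4a1, Sap18, Shc4, Syn1, Txndc11 and Vip fall outside that rule and were chosen after their values were seen. The alternatives were other pseudocounts, filters and scalings, small RNA genes kept, bounds that must not overlap, and the highest row of a symbol. Leaving out loci under 300 bp or genes with under 30 effective fragments in both hairpin libraries was added after seeing the data. Promoters are RefSeq's (GRCm38.p6) and transcripts GENCODE's, and no coordinate was carried between builds.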

Additional observations from a re-analysis of the deposited data

Results flagged for a closer look

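The 2 responses took opposite directions in several results, and with 1 library per group the difference was not tested in any of them. The median of the 33 interferon-stimulated genes was -0.209 with the hairpin and 0.415 with the vector. Lrrc17 stood at a difference of 1.16 with the hairpin and -1.21 with the vector. Pet117 stood at 1.12 and -0.84, from 1.37 and 20.4 effective fragments with the hairpin. Gm12238, which overlaps G3bp1, was listed at 0 untreated with the hairpin and had a difference of 2.46, against -2.46 with the vector. A signal outside the comparison was also high: small RNA genes held 14.2% of summed FPKM in the stimulated hairpin library, 4.97% in the untreated one, 9.89% in the untreated vector library and 5.80% in the stimulated one.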

How the results depend on the processing

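The count of 277 higher genes was 160 with a pseudocount of 5 and lay within 1.5 times of its value under the other settings run, from 215 after scaling to a common sum to 361 with a pseudocount of 0.1. The count of 21 lower genes was 1 with a pseudocount of 5, 97 with a pseudocount of 0.1, 52 after scaling to a common sum and 92 with small RNA genes kept, and 15 to 21 elsewhere. The cause of these shifts was not tested. All 277 higher genes were also higher with a pseudocount of 0.1 and after scaling by the median of ratios. Both settings can only enlarge a positive difference here, so neither could have removed a higher gene. Of 789 list medians recomputed, 46 changed sign, 5 of them from a median at least 0.1 from 0. Of these 5, heat-shock genes came to -0.027 and prostaglandin genes to -0.047 after scaling to a common sum, Klf factors to 0.081 and neurotrophins to 0.029 with an FPKM of at least 5, and endothelial and mural markers to 0.026 with no filter. Of 4551 recomputed differences of named genes 22 changed sign, all from a size of at most 0.18 and under another scaling, and 104 crossed the 2-fold limit with a shift of at least 0.1. No paired analysis was possible because each group has 1 library. Depth limits the genes near the FPKM limit, where 13 of the higher genes rest on under 10 effective fragments untreated.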
